A study of Mus musculus with 6 samples.

Results

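The genes described here encode the extracellular and nuclear parts of the WNT signalling pathway. They comprise WNT ligands, Frizzled receptors and LRP co-receptors, secreted antagonists, the TCF and LEF transcription factors, and the feedback inhibitors Axin2 and Nkd1. Members were taken by gene symbol (names beginning with Wnt, Fzd, Sfrp or Dkk and a number, and a short list of further names), which gave 46 of the 18193 genes on the array that have a probe set of their own. Among them were 19 WNT ligands, 10 Frizzled receptors, 4 secreted frizzled-related proteins, 4 Dickkopf proteins, 3 TCF and LEF factors, 2 LRP co-receptors, 2 feedback inhibitors, Wif1, and Fzd10os, a transcript from the strand opposite Fzd10. The TCF factor Tcf7 was not analysed here. Each gene is represented by its brightest probe set over all arrays, whatever the genotype.

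RNA came from 6 groups of cells sorted by FACS from mouse skin, with 1 array in each group. Matrix cells of the hair follicle, cells of its outer root sheath (ORS) and basal epidermal cells were each taken from mice labelled Ezh1/2 2KO, called 2KO below, and from mice labelled Ezh1/2 WT, called WT. All mice were 14 days old and of a mixed C57B6 and CD1 background. The 2KO basal epidermis came from females, and the other 5 samples came from both sexes. The labels name neither the driver of the deletion, nor the cells in which it took place, nor the number of animals behind a sample.

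The products of Ezh1 and Ezh2 are the methyltransferases of the Polycomb complex PRC2, whose mark on histone H3 accompanies silencing of developmental genes. WNT ligands bind a Frizzled receptor together with LRP5 or LRP6, which stabilises beta-catenin, and beta-catenin then acts in the nucleus through TCF and LEF factors. In the hair follicle this pathway is known for starting the follicle and for driving shaft differentiation in the matrix, where LEF1 acts with beta-catenin, whereas TCF7L1 acts mostly as a repressor in ORS and stem cells. WIF1, the SFRP proteins and the DKK proteins are secreted and bind either the ligands or the co-receptors.

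Values are MAS5 signals, intensities on a linear scale that the authors had brought to one trimmed mean per array. A signal below 83.2, the median of all probe sets other than controls, was treated as a floor, and the share of probe sets at or above it ranged from 47.7% to 53.1% over the arrays. A gene was called higher or lower at a ratio of at least 2-fold, the fold named in the series text. A ratio with 1 side below the floor is a lower bound, and a pair with both sides below it was not measured. With 1 array per group a difference within one cell type has no replicate check and no test. A difference common to the 3 cell types was tested across all genes, with cell type as a block, and the differences between cell types then serve as its error. In sorted populations, fewer cells of a type and less RNA per cell cannot be told apart.

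The targeted genes were lower on each 2KO array. Ezh2 had 432 signal units in 2KO and 2563 in WT basal epidermis, 1725 in 2KO and 3578 in WT matrix, and 378 in 2KO and 2151 in WT ORS. Ezh1 read 57.4, 89.4 and 51.6 in 2KO basal epidermis, matrix and ORS, against 401, 317 and 380 in WT. Whether these probes lie in the deleted parts is not known here. The matrix identity showed in its markers. The 10 genes of matrix and hair shaft summed to 46196 units in 2KO matrix and 58545 in WT matrix. They summed to at most 1650 units in the other 2KO samples and at most 3954 in the other WT samples. The 7 basal epidermal genes set basal epidermis and ORS little apart. Their sums were 113346 in 2KO and 131491 in WT basal epidermis, and 105264 in 2KO and 104504 in WT ORS. The 5 suprabasal genes did set them apart, with 65109 in 2KO and 51764 in WT basal epidermis. In ORS they summed to 8293 in 2KO and 10119 in WT, so the basal samples also carried a high suprabasal signal. The summed signal of 7 ORS and stem cell genes was 42031 in 2KO ORS and 40923 in WT ORS, against 25597 in 2KO and 26392 in WT basal epidermis. On the matrix arrays the same list summed to 29641 in 2KO and 9960 in WT, and 4 of the 7 genes were higher in 2KO, led by Sox9 (2345 in 2KO, 186 in WT).

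Of the 46 genes, 22 were at or above the floor on all 6 arrays and 11 on none. The 11 that were never above it were Dkk1, Dkk2, Dkk4, Fzd9, Sfrp4, Wnt1, Wnt2, Wnt2b, Wnt8a, Wnt8b and Wnt9b. The signals of the other 35 are drawn by array in the map of signals.

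**Figure D1:**
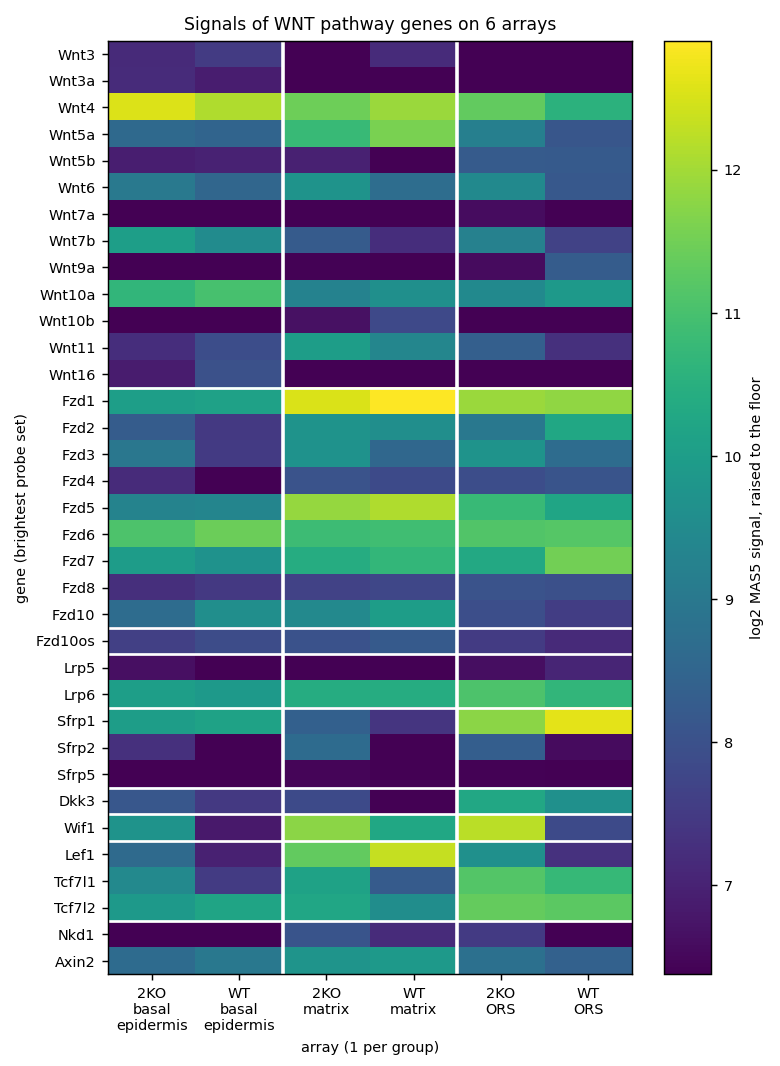
Signals of the 35 genes that reached the floor on at least 1 array, as log2 MAS5 signal raised to the floor (colour), in rows by role from ligands to feedback inhibitors and in columns by array, 2KO left of WT in each cell type, with 1 array per column. Wif1 is bright on all 3 2KO arrays and on the WT matrix array, and Lef1 is brightest in matrix of both genotypes. Colours of different genes come from different probes and are not to be compared.

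Wif1, whose product binds WNT ligands outside the cell, had the largest ratio of any member in basal epidermis and in ORS. It read 854 in 2KO and 113 in WT basal epidermis, 3486 in 2KO and 1239 in WT matrix, and 4785 in 2KO and 228 in WT ORS. The ratio of 2KO over WT was 21.0-fold in ORS, 7.54-fold in basal epidermis and 2.81-fold in matrix. In 2KO the highest of the 3 cell types was ORS, whereas in WT it was matrix. Wif1 has 1 probe set on the array, so that no second measurement of the gene was available. The matrix call was lost after scaling to the hybridisation controls, with a log2 ratio of 0.80, and the basal call with a floor at the 75th percentile, with 0.88.

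Lef1, the nuclear partner of beta-catenin in the matrix, moved in opposite directions in different cell types. Its signal was 396 in 2KO and 126 in WT basal epidermis, 803 in 2KO and 159 in WT ORS, and 2601 in 2KO and 5115 in WT matrix. Lef1 was thus 5.06-fold higher in 2KO ORS, 3.14-fold higher in 2KO basal epidermis and 1.97-fold lower in 2KO matrix, just inside the 2-fold limit. The ORS call was lost with a floor at the 75th percentile, with a log2 ratio of 0.79, and the basal call with the mean of both probe sets, with 0.74. Matrix kept the highest Lef1 signal in both genotypes. A dimmer Lef1 probe set read 256 in 2KO and 609 in WT matrix, a ratio 2.38-fold lower, and was below the floor on the other 4 arrays. On the same matrix arrays 3 of 10 matrix and hair shaft markers were lower in 2KO and 1 was higher, and the part of this in the Lef1 difference was not tested.

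The promoters of Wif1, Lef1 and Sfrp2 are shown because these genes had the largest ratios in ORS among the members with a promoter in the RefSeq table of GRCm38.p6. Each sequence is the 250 bases before the annotated start, on the plus strand, with CpG dinucleotides in capitals, since CpG-rich promoters are the usual sites of Polycomb binding in mammals. The windows are chr10:121033754-121034003 for Wif1, chr3:131110047-131110296 for the first of 4 annotated Lef1 starts, and chr3:83766071-83766320 for Sfrp2.
Wif1: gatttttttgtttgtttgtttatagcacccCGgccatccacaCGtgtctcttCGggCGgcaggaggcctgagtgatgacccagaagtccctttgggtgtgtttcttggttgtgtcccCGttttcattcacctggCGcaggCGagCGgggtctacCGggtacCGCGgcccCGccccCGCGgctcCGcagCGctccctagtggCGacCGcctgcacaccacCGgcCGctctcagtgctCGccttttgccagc
Lef1: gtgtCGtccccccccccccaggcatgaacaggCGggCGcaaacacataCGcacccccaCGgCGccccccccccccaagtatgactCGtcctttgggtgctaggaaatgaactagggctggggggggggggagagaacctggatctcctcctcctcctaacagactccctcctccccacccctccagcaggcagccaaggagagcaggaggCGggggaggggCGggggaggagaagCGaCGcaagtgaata
Sfrp2: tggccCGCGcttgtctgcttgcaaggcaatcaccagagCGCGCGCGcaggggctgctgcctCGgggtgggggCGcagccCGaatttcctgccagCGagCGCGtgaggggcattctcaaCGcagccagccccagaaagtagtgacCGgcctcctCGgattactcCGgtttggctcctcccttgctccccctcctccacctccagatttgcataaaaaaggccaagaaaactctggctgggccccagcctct

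These windows held 21, 11 and 16 CpG dinucleotides for Wif1, Lef1 and Sfrp2. Over the 38 windows of the 31 members in that table, the median was 20 CpG per window with quartiles of 9.5 and 31.5, against a median of 10 with quartiles of 3 and 19 over the 21262 windows of protein-coding genes. The member windows ranged from 4 CpG at one Wnt5b start to 48 at Wnt9a, and among called members Nkd1 had 6 and Wnt16 had 9. The TCF and LEF motif, searched on both strands as CTTTGAA, or else as CTTTGAT, or else as CTTTGTA, or else as CTTTGTT, occurred in 6 of the 38 member windows (15.8%) and in 14.8% of all 32851 windows of the same length. Over the 21262 windows of protein-coding genes, the set used for the CpG counts, the share with the motif was 13.2%. None of the 3 printed windows holds these letters, which says nothing about the factors themselves. Some windows of one gene overlap, and a match in such a window is a description of its sequence only.

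**Figure D2:**
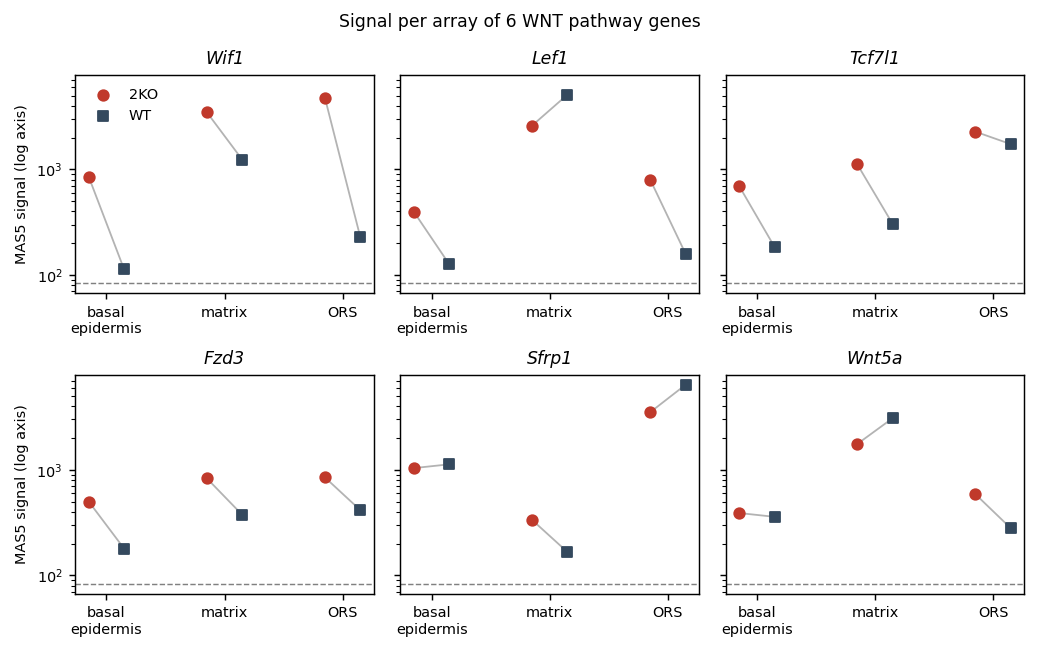
MAS5 signal (log axis) of Wif1, Lef1, Tcf7l1, Fzd3, Sfrp1 and Wnt5a in basal epidermis, matrix and ORS, with 2KO as circles left of WT as squares, 1 array per point, a line joining the pair and the floor of 83.2 dashed. Wif1 and Fzd3 lie higher in 2KO in each cell type, while Lef1 and Wnt5a are higher in 2KO ORS and lower in 2KO matrix than in WT.

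Tcf7l1 was higher in basal epidermis and matrix, and Tcf7l2 was within 2-fold. Tcf7l1, a repressor of target genes in the absence of WNT signals, read 696 in 2KO and 184 in WT basal epidermis, 1118 in 2KO and 304 in WT matrix, and 2280 in 2KO and 1736 in WT ORS. The ratio was 3.78-fold in basal epidermis and 3.68-fold in matrix, and 1.31-fold in ORS, the cell type with the highest Tcf7l1 signal in both genotypes. Its dimmer probe set gave 3.05-fold in basal epidermis and 1.68-fold in matrix. Tcf7l2, which can activate or repress targets, stayed within 2-fold, with 958 in 2KO and 1175 in WT basal epidermis, 1216 in 2KO and 765 in WT matrix, and 2633 in 2KO and 2447 in WT ORS.

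Counted over the members, basal epidermis had 4 genes at least 2-fold higher in 2KO (Fzd3, Lef1, Tcf7l1 and Wif1) and 1 at least 2-fold lower (Wnt16), of 30 measured. That is 13.3% higher and 3.33% lower, where 6.59% and 4.09% of all measured genes were called higher and lower. In matrix 8 of 32 were higher (25%, against 9.03% of all genes) and 1 was lower (3.12%, against 1.62%). In ORS 9 of 31 were higher (29.0%, against 8.16%) and 3 were lower (9.68%, against 4.75%). The shares of lower members rest on 1 to 3 genes each, and with 1 array per group none of these shares has an error.

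A gene below the floor on 1 array counted as measured only where the other array was at or above it. The counts were therefore also taken over genes at or above the floor on both arrays of a pair. There 4 of 27 members were called higher in basal epidermis, 6 of 25 were in matrix and 8 of 28 were in ORS, where 5.01%, 7.15% and 6.53% of all such genes were higher. The members called lower were 1, 1 and 3, where 3.97%, 1.63% and 4.61% of all such genes were lower. The median log2 ratio of these members was -0.06, -0.05 and 0.38 in the 3 cell types, against 0.02, -0.01 and -0.02 over all such genes. Over all measured members the medians were 0.13, 0.03 and 0.37, against 0.04, 0.03 and 0.01. In ORS 23 members had a log2 ratio above 0 and 8 below, whereas basal epidermis had 16 above and 14 below, and matrix 18 above and 14 below.

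A genotype difference common to the 3 cell types was tested with limma on log2 signals, with genotype and cell type as terms and 2 residual degrees of freedom, over the 10943 genes whose mean signal was at or above the floor. This test was chosen after seeing the data. At an adjusted p under 0.05, 0 of the 28 members tested were called, against 66 genes higher (0.603%) and 2 lower (0.0183%) among all genes. At an unadjusted limma p under 0.05 there were 7 of the 28 members, against 1787 of all 10943 genes. The 7 were Fzd3, Sfrp2, Wif1, Wnt6, Dkk3, Wnt7b and Tcf7l1, each with a higher estimate in 2KO. The estimate for Wif1 was a log2 ratio of 2.93 with a standard error of 0.55 and a limma adjusted p of 0.114, which ranged from 4.24e-05 to 0.272 over the alternatives. For Fzd3 it was 1.22 with a standard error of 0.18 and a limma adjusted p of 0.0724, with a range of 0.0721 to 0.347. Both genes were higher in 2KO in 3 of 3 cell types. After scaling to the hybridisation controls Wif1 and Sfrp2 passed the threshold, and of all 10946 genes tested 272 were then called higher and 274 lower. In that setting limma drew the error of a gene more from all genes, with 31 prior degrees of freedom against 3.07 as reported.

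The 2-fold shares depend on how the arrays are scaled. Scaling to a common median moved the median log2 ratio of all measured genes to -0.07 for basal epidermis and to -0.24 for both follicle cell types, and scaling to the hybridisation controls moved it to -0.02 for basal epidermis, -0.64 for matrix and -0.18 for ORS. The members higher in matrix were then 4 and 3, and those higher in ORS 5 with the common median. The shares of all genes called under these scalings are not given here, so an excess of members was not checked there. In matrix Fzd3, Sfrp1, Wnt6 and Wnt7b lost their calls under both scalings, while Sfrp2, Tcf7l1 and Dkk3 kept theirs.

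**Figure D3:**
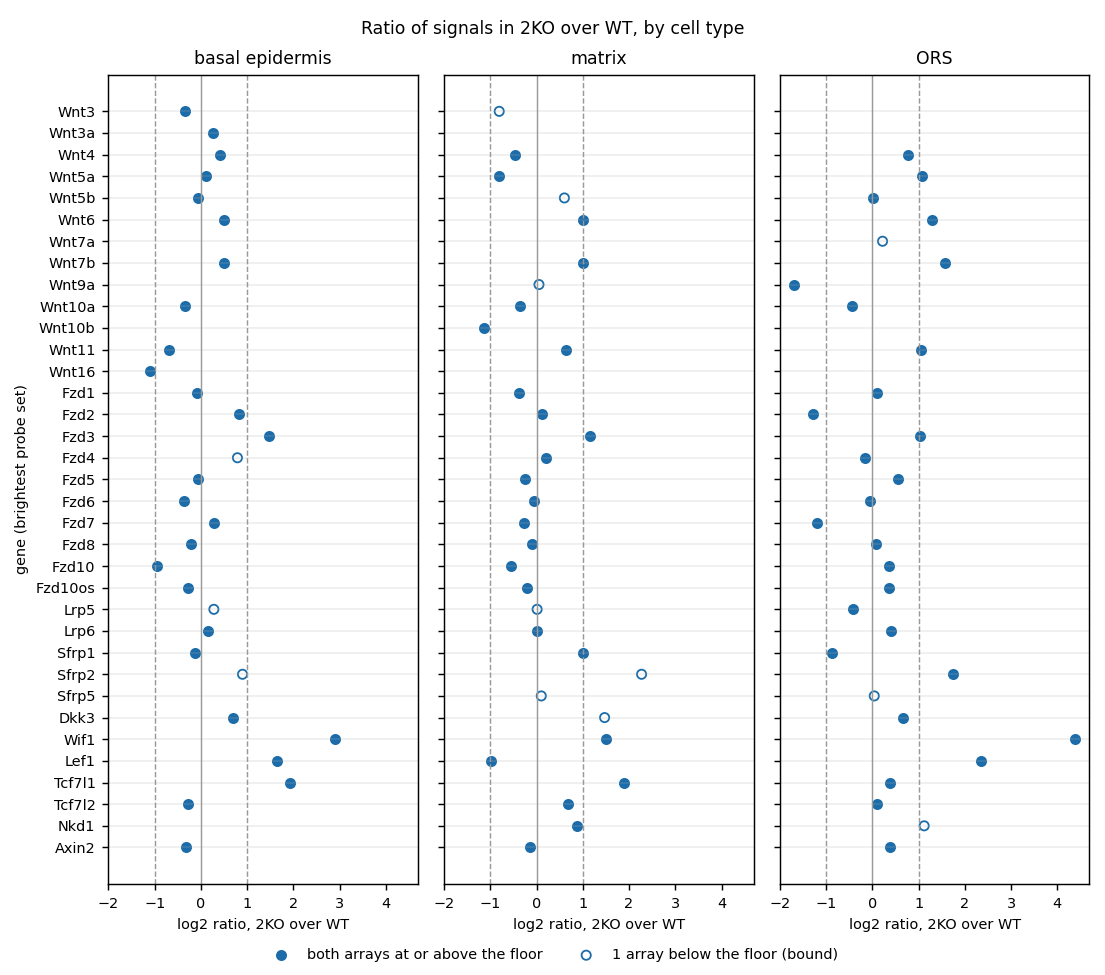
Log2 ratio of 2KO over WT for the same 35 genes in basal epidermis, matrix and ORS, 1 pair of arrays per panel. Filled points have both signals at or above the floor, open points have 1 below it and are bounds, dashed lines mark 2-fold, and a missing point was not measured. Wif1 stands farthest to the right in basal epidermis and ORS, and Sfrp2 in matrix.

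Among the WNT ligands, 13 of 19 reached the floor on at least 1 array. In ORS 4 of the 9 measured ligands were higher and 1 was lower. Matrix had 2 higher and 1 lower ligand of 10, and basal epidermis 0 higher and 1 lower of 10. Of all measured genes, 8.16% were higher and 4.75% lower in ORS. The shares were 9.03% and 1.62% in matrix, and 6.59% and 4.09% in basal epidermis. Wnt7b, an epidermal ligand, read 1045 in 2KO and 742 in WT basal epidermis, 303 in 2KO and 151 in WT matrix, and 609 in 2KO and 204 in WT ORS. Its ratio was 2.98-fold in ORS and 2.01-fold in matrix. Wnt7b was highest in basal epidermis in both genotypes. The dimmer Wnt7b probe set did not exceed 85.5 on any array, and the ORS ratio of the mean over both probe sets was under 2-fold.

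Wnt6, another epithelial ligand, read 519 in 2KO and 368 in WT basal epidermis, 843 in 2KO and 420 in WT matrix, and 712 in 2KO and 291 in WT ORS. It was 2.44-fold higher in ORS, and its other probe set gave 2.19-fold there. The matrix ratio of 2.01-fold was 1.80-fold with the other probe set. Both probe sets of Wnt6 were higher in 2KO in each cell type.

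Wnt5a and Wnt11 act mainly without beta-catenin, on cell shape and polarity. Wnt5a read 389 in 2KO and 358 in WT basal epidermis, 1754 in 2KO and 3084 in WT matrix, and 587 in 2KO and 279 in WT ORS. It was 2.11-fold higher in ORS, where a further probe set gave 2.17-fold, and 1.76-fold lower in matrix, where 3 further probe sets were also lower, by 1.32-, 1.42- and at least 1.5-fold. Wnt11 read 151 in 2KO and 241 in WT basal epidermis, 1032 in 2KO and 667 in WT matrix, and 325 in 2KO and 157 in WT ORS. The ORS ratio was 2.07-fold. For Wnt5a and Wnt11 the ORS ratios were under 2-fold after scaling to a common median or to the hybridisation controls.

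The ligands lower in 2KO were Wnt9a, Wnt10b and Wnt16, each in 1 cell type. Wnt9a read 95.4 in 2KO and 310 in WT ORS, 3.25-fold lower, and was near or below the floor on the other 4 arrays. Wnt10b, a matrix and placode ligand that activates beta-catenin signalling, read 102 in 2KO and 226 in WT matrix, 2.20-fold lower, and was below the floor on the other 4 arrays. Wnt16 read 118 in 2KO and 256 in WT basal epidermis, 2.16-fold lower, and was below it in matrix and ORS. These 3 calls held under each alternative that gave a value.

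Wnt4 and Wnt10a, which are both ligands of the epidermis, stayed within 2-fold. Wnt4 read 6050 in 2KO and 4508 in WT basal epidermis, 2841 in 2KO and 3913 in WT matrix, and 2603 in 2KO and 1526 in WT ORS. Wnt10a, known for human ectodermal dysplasia when mutated, read 1632 in 2KO and 2065 in WT basal epidermis, 613 in 2KO and 794 in WT matrix, and 714 in 2KO and 969 in WT ORS. Wnt10a was lower in 2KO in each cell type, by a log2 ratio between -0.34 and -0.44.

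Of 10 Frizzled receptors, 9 were measured in each cell type. Fzd3, which acts in planar polarity together with Fzd6, was, with Wif1, 1 of 2 members called higher in each of the 3 cell types with the signals as deposited. It read 500 in 2KO and 179 in WT basal epidermis, 830 in 2KO and 374 in WT matrix, and 847 in 2KO and 414 in WT ORS, ratios of 2.79-, 2.22- and 2.05-fold. Of its 5 other probe sets, 3 were measured, with ratios of 1.89- to 2.09-fold in basal epidermis and 1.40- to 1.82-fold in matrix. In ORS their log2 ratios were 0.10, -0.06 and 0.41, so the Fzd3 difference in ORS rests on the brightest probe set. Its ORS and matrix calls were each lost under 4 of 7 alternatives, among them both rescalings, and its basal call under 2 of 7, with a lowest log2 ratio of 0.11.

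Fzd2 and Fzd7, receptors that are close in sequence, were lower in 2KO ORS. Fzd2 read 313 in 2KO and 176 in WT basal epidermis, 845 in 2KO and 782 in WT matrix, and 512 in 2KO and 1241 in WT ORS. It was 2.42-fold lower in ORS, and its other probe sets gave 2.25-fold and 3.38-fold. Fzd7 read 1012 in 2KO and 833 in WT basal epidermis, 1369 in 2KO and 1654 in WT matrix, and 1280 in 2KO and 2943 in WT ORS, 2.30-fold lower. For both genes WT ORS was the highest of the 6 arrays, and the calls were the same under all 7 alternatives. The brightest Fzd2 probe set belongs to a class that can match more than 1 transcript.

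Of the remaining receptors, Fzd9 was not measured, and Fzd4 read 144 in 2KO basal epidermis and below the floor in WT, a ratio of at least 1.73-fold. The others lay within 2-fold with their brightest probe sets. Fzd1 read 1046 in 2KO and 1113 in WT basal epidermis, 5883 in 2KO and 7660 in WT matrix, and 3896 in 2KO and 3622 in WT ORS. Fzd6, which patterns hair orientation, read 2152 in 2KO and 2780 in WT basal epidermis, 1861 in 2KO and 1925 in WT matrix, and 2253 in 2KO and 2342 in WT ORS. Fzd10 read 409 in 2KO and 783 in WT basal epidermis, a log2 ratio of -0.94, 698 in 2KO and 1032 in WT matrix, and 245 in 2KO and 190 in WT ORS. Fzd10os read 195 in 2KO and 237 in WT basal epidermis, 261 in 2KO and 300 in WT matrix, and 184 in 2KO and 143 in WT ORS, and so had the same sign of difference as Fzd10 in each cell type. Fzd5 read 626 in 2KO and 657 in WT basal epidermis, 3749 in 2KO and 4504 in WT matrix, and 1761 in 2KO and 1198 in WT ORS. Fzd8 read 153 in 2KO and 177 in WT basal epidermis, 202 in 2KO and 217 in WT matrix, and 263 in 2KO and 249 in WT ORS. For Fzd5 matrix was the highest cell type in both genotypes. Lrp6, the main co-receptor, read 1049 in 2KO and 948 in WT basal epidermis, 1378 in 2KO and 1368 in WT matrix, and 2176 in 2KO and 1643 in WT ORS. Its relative Lrp5 lay between 71.2 and 132 on all arrays, close to the floor.

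Sfrp1, an antagonist that binds WNT ligands, was an ORS gene in both genotypes. It read 1037 in 2KO and 1126 in WT basal epidermis, 335 in 2KO and 166 in WT matrix, and 3502 in 2KO and 6382 in WT ORS. The matrix ratio was 2.01-fold higher and the ORS ratio 1.82-fold lower. In ORS 3 of its 4 other probe sets were more than 2-fold lower, by up to 3.48-fold. The matrix call was lost under 4 of the 6 alternatives that gave a value, among them scaling to a common median and quantile normalization.

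Sfrp2, a second member of that family and a gene of dermal cells, read 155 in 2KO and 57.3 in WT basal epidermis, 402 in 2KO and 61.6 in WT matrix, and 319 in 2KO and 95.7 in WT ORS. It was at least 4.83-fold higher in matrix and 3.34-fold higher in ORS. Dkk3, a divergent Dickkopf gene of the ORS, read 284 in 2KO and 177 in WT basal epidermis, 230 in 2KO matrix and below the floor in WT matrix, and 1262 in 2KO and 801 in WT ORS. It was at least 2.77-fold higher in matrix, and its other probe set was at least 2.79-fold higher. Dkk1, Dkk2 and Dkk4 were below the floor on all 6 arrays. Dkk3, Fzd3, Sfrp1 and Tcf7l1 had their highest signal in ORS in both genotypes and were higher in 2KO matrix. On the matrix arrays 4 of 7 ORS and stem cell markers were also higher in 2KO. Fzd8, Lrp6, Tcf7l2, Wnt5b and Wnt9a were likewise highest in ORS in both genotypes, but were not called in matrix. The part of ORS cells in these differences was not tested.

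Markers of dermal cells also differed between the genotypes, and not in the same way in each cell type. On the matrix arrays 8 of 11 fibroblast genes were at least 2-fold higher in 2KO and none lower, and the list summed to 39945 in 2KO and 20839 in WT. In ORS 2 of the 11 were higher, Col5a1 and Dcn, with sums of 40809 in 2KO and 28976 in WT. In basal epidermis 2 were higher and Postn was lower, with sums of 22736 in 2KO and 39506 in WT. Of 8 dermal papilla genes, Crabp1, Sox2, Prom1 and Vcan were higher in 2KO in each cell type, with sums of 2646, 4686 and 4009 in 2KO basal epidermis, matrix and ORS against 772, 2983 and 1030 in WT. Corin, of the same list, exceeded the floor only in 2KO matrix, at 129. Alx4 and Hey2 were below the floor on all 6 arrays, as was the fibroblast gene Pdgfra on all but 2KO ORS, where it read 122. The part of such cells in the higher Wif1 and Sfrp2 signals was not tested.

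Matrix and hair shaft markers were lower on the other arrays, with 5 of 9 measured genes lower in basal epidermis (sums of 831 in 2KO and 3605 in WT) and 4 of 9 lower in ORS (1650 in 2KO, 3954 in WT), and none higher. Among them Krt25, a keratin of the inner root sheath, was lower by 13.9-fold in basal epidermis and by 7.79-fold in ORS.

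Lists for other cells also differed. On the matrix arrays 4 of 8 immune genes were higher in 2KO (sums of 5321 in 2KO and 1159 in WT), as were 4 of 6 muscle genes (2891 in 2KO, 524 in WT), 3 of 7 basal epidermal genes (48825 in 2KO, 27350 in WT), 2 of 5 suprabasal genes (11926 in 2KO, 5763 in WT) and 2 of 3 companion layer genes (35128 in 2KO, 8887 in WT). Of 6 Merkel cell genes 4 were higher in 2KO in each cell type, and 1 of these, Sox2, is also on the dermal papilla list. In basal epidermis 3 of 8 immune genes (6602 in 2KO, 8438 in WT) and 2 of 4 sebocyte genes (7796 in 2KO, 10929 in WT) were lower. Of 7 melanocyte genes a different 1 was lower in each cell type, Mitf in basal epidermis, Dct in matrix and Tyrp1 in ORS. In ORS all 4 sebocyte genes were lower, with sums of 10722 in 2KO and 40685 in WT. None of the 4 endothelial genes was called in any cell type. The part of these cells in the differences of members was not tested.

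The feedback genes, which are transcribed in response to beta-catenin in many tissues, gave no common direction. Axin2 read 407 in 2KO and 510 in WT basal epidermis, 867 in 2KO and 957 in WT matrix, and 439 in 2KO and 336 in WT ORS, all within 1.31-fold. Matrix was the highest cell type for Axin2 in both genotypes. Nkd1, which binds Dishevelled, read 65.3 in 2KO and 50.2 in WT basal epidermis, 268 in 2KO and 146 in WT matrix, and 181 in 2KO and 64.2 in WT ORS, at least 2.18-fold higher in ORS. A further Nkd1 probe set was higher by at least 2.47-fold in ORS and by 2.10-fold in matrix, while another read 101 in 2KO and 87.9 in WT ORS. The ORS call was lost under 3 of 6 alternatives.

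Other probe sets of the same genes give the only second measurement on these arrays. Over the 3 cell types 69 further probe sets could be set beside the brightest one, and 52 of them had a lower ratio of 2KO over WT than the brightest, while 17 had a higher one. For genes called by the brightest probe set, 4 of 4 further probe sets lay on the same side of 0 in basal epidermis, and 2 of them reached 2-fold. The same held for 9 of 9 in matrix, with 2 at 2-fold, and for 8 of 9 in ORS, with 5 at 2-fold. Of the genes within 2-fold, Fzd5 was 2.30-fold lower by its dimmer probe set in basal epidermis, where the brightest read 626 in 2KO and 657 in WT. In matrix the dimmer probe sets of Fzd6 and Lrp6 were 2.10- and 2.07-fold lower. These dimmer probe sets lie closer to the floor.

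**Figure D4:**
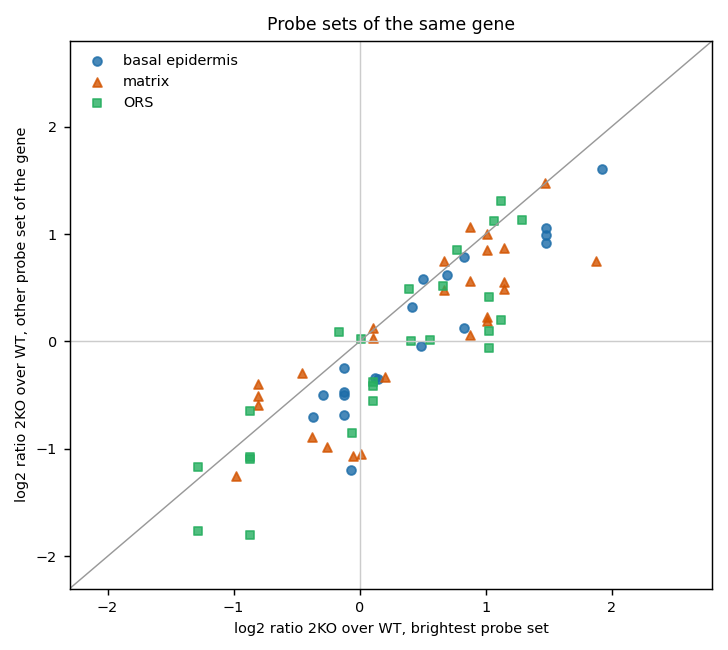
Log2 ratio of 2KO over WT of the brightest probe set of a gene (horizontal) against each further probe set of that gene (vertical), by cell type, for the 69 further probe sets measured in the same pair. The line marks equal ratios, and 52 of the points lie below it.

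The members also differed between the 3 cell types, with fewer calls in 2KO than in WT for matrix against ORS. In 2KO, 5 of 32 measured members were at least 2-fold higher in matrix than in ORS (5.2% of all genes) and 6 were lower (8.61%), whereas in WT 11 of 31 were higher (8.6%) and 6 lower (13.9%). Lef1 had a log2 ratio of matrix over ORS of 1.70 in 2KO and 5.01 in WT, Wnt5a of 1.58 in 2KO and 3.47 in WT, and Sfrp1 of -3.39 in 2KO and -5.26 in WT. Wif1 had -0.46 in 2KO and 2.44 in WT, so that its signal was higher in ORS than in matrix in 2KO and lower in WT. ORS markers were also higher on the 2KO matrix array, as given above, and their part in these ratios was not tested. All 17 members called in WT had a log2 ratio of smaller size in 2KO, and 10 of them were called the same way. Choosing genes by a large WT ratio favours this result, and of all 2576 genes called in WT 89.0% had a smaller ratio in 2KO and 40.7% the same call.

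**Figure D5:**
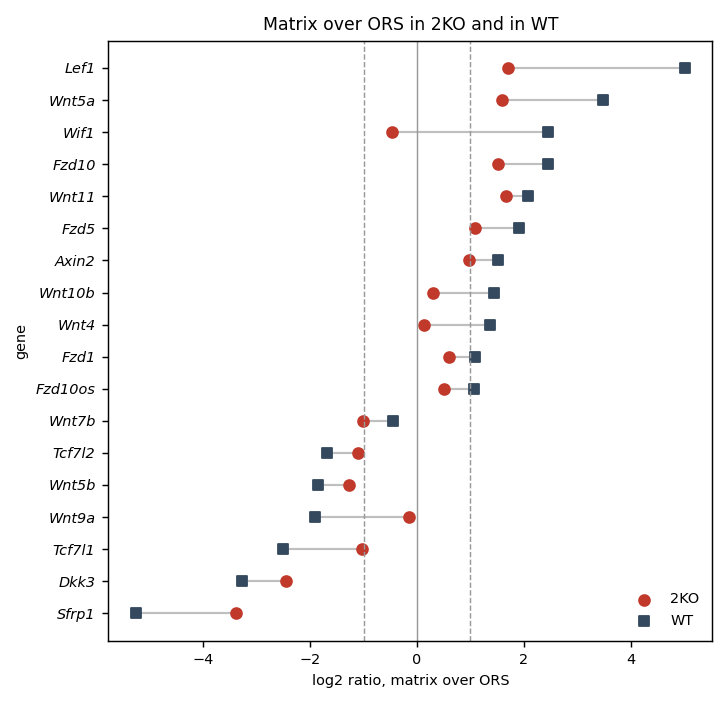
Log2 ratio of matrix over ORS in 2KO (circles) and in WT (squares) for the 18 genes at least 2-fold different in either genotype, 1 pair of arrays per point, with 2-fold as dashed lines and a grey line joining the genotypes. The circles lie closer to 0 than the squares for all genes except Wnt7b.

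Against basal epidermis, matrix had 10 of 34 members higher and 4 lower in 2KO (6.9% and 7.29% of all genes), and 10 of 30 higher and 5 lower in WT (11.3% and 13.8%). Fzd1, Fzd2, Fzd5, Lef1, Wif1, Wnt5a and Wnt11 were higher in matrix, and Sfrp1, Wnt10a and Wnt7b lower, in both genotypes. Lef1 had a log2 ratio of 2.72 in 2KO and 5.34 in WT, while Fzd5, a receptor for canonical ligands, had 2.58 in 2KO and 2.78 in WT. ORS had 13 of 34 members higher and 2 lower than basal epidermis in 2KO (6.73% and 4.32%), and 12 of 31 higher and 6 lower in WT (5.88% and 4.15%). Wnt4 and Wnt10a were lower in ORS than in basal epidermis in both genotypes, and Dkk3, Fzd1, Sfrp1, Tcf7l1, Tcf7l2, Wif1 and Wnt5b higher.

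Beyond the members, 64 other genes of the pathway were looked at as a list. In 2KO over WT, ORS had 7 of 54 measured genes higher and 2 lower, matrix 7 of 56 higher and 0 lower, and basal epidermis 4 of 53 higher and 3 lower. The shares higher were 13.0%, 12.5% and 7.55%, against 8.16%, 9.03% and 6.59% of all genes. The shares lower were 3.7%, 0.0% and 5.66%, against 4.75%, 1.62% and 4.09% of all genes. The median log2 ratios were 0.23, 0.21 and -0.06, against 0.01, 0.03 and 0.04 over all genes. Sostdc1, an antagonist of BMP and WNT signals, read 2292 in 2KO and 11264 in WT basal epidermis, 1232 in 2KO and 186 in WT matrix, and 3017 in 2KO and 9040 in WT ORS. Apcdd1, a membrane inhibitor of WNT reception, was 3.73-fold lower in basal epidermis (3428 in 2KO, 12798 in WT) and 2.77-fold lower in ORS. In basal epidermis Notum, which removes the lipid from WNT proteins, was higher by at least 4.11-fold (342 in 2KO, 80.6 in WT).

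Of genes that act on reception, Shisa2, which holds Frizzled proteins inside the cell, was 8.75-fold higher in matrix (903 in 2KO, 103 in WT), and in basal epidermis the ratio was at least 2.46-fold. Ror2, a receptor of Wnt5a, was 6.35-fold higher in ORS (960 in 2KO, 151 in WT), and in basal epidermis the ratio was at least 2.98-fold. Porcn, which attaches the lipid to WNT proteins, was 2.81-fold higher in ORS (1534 in 2KO, 545 in WT). Dact1, a Dishevelled-binding protein, was at least 4.87-fold higher in matrix and 2.61-fold higher in ORS. Of the other called genes, Cby1 was higher and Tle4 lower in basal epidermis, Nkd2, Tle1, Tle2 and Vangl1 were higher in matrix, and Lgr6, Hic1, Prickle1 and Ctnnbip1 were higher in ORS.

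A list of 24 genes known as targets of the pathway, of which Axin2, Dkk1 and Lef1 are also members, had 3 higher and 1 lower of 17 measured in basal epidermis. Matrix had 4 higher and 2 lower of 19, and ORS had 3 higher and 1 lower of 19. The shares higher were 17.6%, 21.1% and 15.8%, against 6.59%, 9.03% and 8.16% of all genes, and the shares lower were 5.88%, 10.5% and 5.26%, against 4.09%, 1.62% and 4.75%. The median log2 ratios were 0.25, -0.14 and 0.25, against 0.04, 0.03 and 0.01 over all genes. Ccnd1, which encodes cyclin D1, was higher in all 3 cell types, with 8474 in 2KO and 3633 in WT basal epidermis, 11080 in 2KO and 5343 in WT matrix, and 7932 in 2KO and 2278 in WT ORS. In matrix Msx2 (2307 in 2KO, 6424 in WT) and Dlx3 (1337 in 2KO, 2951 in WT), transcription factors of the hair shaft lineage, were lower, while Shh and Fst were 2.86- and 4.42-fold higher. Msx2, Dlx3, Hoxc13 and Shh are also on the matrix and hair shaft list above, and Bmp4 is on the dermal papilla list. The matrix calls of Msx2, Dlx3 and Shh are therefore the same calls as there, not a second result. Twist1, a transcription factor of mesenchyme, was at least 2.51-fold higher in matrix and at least 2.32-fold higher in ORS, and in basal epidermis Cdx2, an intestinal transcription factor, was higher by at least 2.58-fold. Id2 was 2.01-fold lower in basal epidermis, and Edar in ORS was lower by at least 2.16-fold.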

How the data were processed

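Total RNA of 6 sorted cell samples was labelled with biotin by in vitro transcription and hybridised to Affymetrix arrays, per the labels. The deposited intensities are linear signals of each probe set; the submitters' processing notes name MAS5, and the series text records background subtraction. The MAS5 version is not given in the sources used here. Every deposited array has a 2% trimmed mean of 500, so a change common to most genes would be scaled away.

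Of 45101 probe sets, 64 were controls, 34945 named 1 gene, 932 named several and 9160 had no gene in the platform annotation. Only probe sets naming 1 gene were used. Signals were raised to the floor of 83.2 and log2 ratios were taken with Python 3.11.15, numpy 2.4.6 and pandas 2.3.3. A genotype effect common to the cell types was fitted with limma 3.58.1 in R 4.3.3, cell type as a block, with Benjamini-Hochberg adjustment over all genes tested. The labels do not say whether arrays of one genotype share mice. All members were counted. Named with values were those at least 2-fold different between genotypes in any cell type and those above the floor on all 6 arrays; other pathway genes and targets were named where at least 2-fold different. The choice of any other member or marker named came after seeing its values. The calling was tested on simulated data. Members and lists were chosen with earlier results of these data known. Alternatives were 3 scalings, 2 floors and 2 ways to choose probe sets. The number of arrays limits the precision.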

Additional observations from a re-analysis of the deposited data

Results flagged for a closer look

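For 5 members the ratio of 2KO over WT reached 2-fold in one cell type and ran at least 1.5-fold the opposite way in another. The differences between cell types were not tested, since each rests on 1 pair of arrays. The log2 ratios below are for ORS, then matrix, then basal epidermis. Lef1 had 2.34, -0.98 and 1.65. Wnt5a had 1.07, -0.81 and 0.12, and Wnt11 had 1.05, 0.63 and -0.68. Fzd2 had -1.28, 0.11 and 0.83. Sfrp1 had -0.87, 1.01 and -0.12.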

How the results depend on the processing

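All 2-fold calls rest on 1 array per group, and near the floor the signal over background limits what can be measured. Of 26 called ratios of members, 10 kept their call under every alternative that gave a value and 0 changed sign. Of 126 counts of members under the 7 alternatives, 100 were within 1.5 times the reported count. Shares of all genes called at 2-fold under the alternatives are not given here, so these counts describe members only. In 2KO over WT, the number higher in basal epidermis became 0 when the floor was the 75th percentile and 2 with the mean of all probe sets per gene, and the number lower was 0 with that floor and 2 with a common median. The number higher in matrix became 13 when the floor was the 25th percentile, 2 at the 75th, 4 with a common median and 3 with the hybridisation controls. The number lower in matrix became 0 when the floor was the 75th percentile, 2 with the mean of all probe sets, 3 with a common median and 8 with the hybridisation controls. The number higher in ORS became 1 when the floor was the 75th percentile and 5 with a common median. The higher floor leaves fewer genes to measure, and for the other settings the cause was not tested.

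Between cell types, a floor at the 75th percentile gave 6 members higher in matrix than in basal epidermis in 2KO and 5 in WT, 2 lower in WT, 3 lower in matrix than in ORS in WT, 8 higher in ORS than in basal epidermis in 2KO and 6 in WT, and 2 lower in WT. A floor at the 25th percentile gave 8 higher in matrix than in ORS and 5 lower in ORS than in basal epidermis, both in 2KO. A common median gave 7 higher and 4 lower in ORS than in basal epidermis in 2KO, and the mean of all probe sets gave 3 lower in matrix than in ORS in 2KO. In the limma test with cell type as a block, added after seeing the data, the number of members called higher was 0 as reported and 2 with the hybridisation controls. Among all genes tested, 66 were called higher as reported and 272 with the hybridisation controls. Beyond this block of cell type arrays could not be paired, because the labels carry no replicate numbers that pair them. Within a cell type each genotype has 1 array, and no replicate could be left out.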
